A study of Mus musculus with 2 samples.

Results

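Delta cells, the somatostatin-secreting endocrine cells of the pancreatic islet, were taken from the WT islet library by the hormone transcripts in each cell. A unique molecular identifier (UMI) counts as 1 captured transcript. Barcodes were kept above a fixed UMI minimum, with at least 500 genes and at most 15% mitochondrially encoded UMIs. This left 4541 WT cells, the shallowest with 5641 UMIs. Of these, 128 were called delta cells because Sst held at least 3% of their UMIs, Ins1 and Ins2 together under 10% and Gcg under 2%. They made up 2.82% of the WT cells (95% exact binomial interval 2.36 to 3.34). Because Sst, Ins1, Ins2 and Gcg chose the cells, the levels of these genes are given as a description, and so is every other difference between these cells and the rest.

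The series profiled islets of male mice, 8 weeks old and fasted for 12 hours, from a miR-203 TG group whose transgene the labels restrict to beta cells and from a WT group without it, with 1 library each. No TG cell was analysed here. Libraries were of the 3′ v2 type from 10x Genomics, and the labels' preparation text describes frozen islets and TRIZOL beside a sort of intestinal goblet cells. With 1 WT library no difference can be set against a replicate, so no test was made and every interval covers counting error only.

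Delta cells lie scattered among the beta and alpha cells of the islet and restrain both by releasing somatostatin, which acts on inhibitory receptors of its neighbours. Their identity in the mouse depends on the homeodomain factor Hhex. They also carry receptors for fatty acids, ghrelin and neuropeptides, through which their secretion is adjusted.

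The start regions of 3 peptide hormone genes are shown, because Sst chose the cells and Ppy and Pyy, which are neighbours in the genome, are described in them below. Capitals mark TGACGTCA, the cAMP response element through which Sst is known to respond to cAMP, and TAAT, the core read by homeodomain factors such as Hhex and Pdx1, each searched on both strands. The windows are those of RefSeq on GRCm38.p6, 5′ to 3′ along the gene, and hold 300 bases around the annotated start.
Sst, chr16:23890795-23891094, minus strand: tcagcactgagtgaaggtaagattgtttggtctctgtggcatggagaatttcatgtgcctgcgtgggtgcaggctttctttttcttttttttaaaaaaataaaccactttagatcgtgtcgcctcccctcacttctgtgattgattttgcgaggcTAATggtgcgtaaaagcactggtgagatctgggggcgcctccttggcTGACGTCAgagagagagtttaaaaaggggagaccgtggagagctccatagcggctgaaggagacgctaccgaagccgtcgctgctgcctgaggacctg
Ppy, chr11:102101270-102101569, minus strand: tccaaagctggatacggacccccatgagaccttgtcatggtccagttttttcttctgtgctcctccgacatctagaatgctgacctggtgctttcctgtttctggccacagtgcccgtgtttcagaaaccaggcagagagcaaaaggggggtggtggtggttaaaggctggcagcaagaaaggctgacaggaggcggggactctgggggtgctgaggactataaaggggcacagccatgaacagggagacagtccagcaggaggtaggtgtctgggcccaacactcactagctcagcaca
Pyy, chr11:102107783-102108082, minus strand: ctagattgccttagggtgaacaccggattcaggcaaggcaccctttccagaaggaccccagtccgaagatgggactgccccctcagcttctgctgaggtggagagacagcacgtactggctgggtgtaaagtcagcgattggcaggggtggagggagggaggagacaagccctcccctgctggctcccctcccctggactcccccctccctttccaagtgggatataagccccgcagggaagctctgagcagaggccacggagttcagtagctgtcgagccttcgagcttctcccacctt
The Sst window held TGACGTCA 48 bases before the RefSeq start and TAAT once, while neither string is in the Ppy and Pyy windows shown. Among 32851 windows of the same length, 1.79% held TGACGTCA and 58.0% held TAAT, so the second is common. TGACGTCA reads the same on both strands and the strings do not overlap in the Sst window. The GENCODE span of Sst is chromosome 16, 23889573 to 23890958, which begins upstream of the RefSeq start used for the window. By that span TGACGTCA lies within the gene, so its place before the start holds for RefSeq only. Ppy (chromosome 11, 102099930 to 102101319) and Pyy (102106676 to 102107832) are neighbours on the minus strand with 5356 bases between them.

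The delta cells were shallow. They held a median of 8743 UMIs (6130 to 18644) and 2701.5 genes, against 21858 UMIs (5641 to 88243) and 3427 genes in the other 4413 WT cells. All delta cells together gave 1241369 UMIs, against 103402075 in the other cells. Further sets chosen by hormone share served for comparison. A beta set of 3380 cells had at least 20% insulin, an alpha set of 468 cells at least 3% Gcg and a PP set of 84 cells at least 3% Ppy, all with Sst under 1%. Their median depths were 23174, 15299.5 and 20270.5 UMIs. When every cell was thinned to 5000 UMIs, the median number of genes was highest in delta cells, at 1847.5, against 1212 in the beta set, 1442 in the alpha set and 1317.5 in the PP set. Hormone and mitochondrially encoded genes took 24.2% of UMIs in delta cells, against 59.2%, 32.0% and 47.2% in these sets. Thinning to a total leaves that difference in place, and its part in the thinned values here and below was not tested.

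Islet hormones took 21.6% of the UMIs of delta cells, against 51.1% in the other WT cells, 55.8% in the beta set and 29.6% in the alpha set. A lower hormone share raises every other gene when counts are divided by the total and scaled to 1e6 UMIs (CPM). For the median gene, CPM in delta cells lay at log2 0.77 over the other WT cells, 0.88 over the beta set and 0.49 over the alpha set. With hormone and mitochondrially encoded UMIs left out of the total it stood at -0.02, -0.08 and 0.33. The log2 ratios below are relative to the median gene, and CPM values are as counted.

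**Figure D1:**
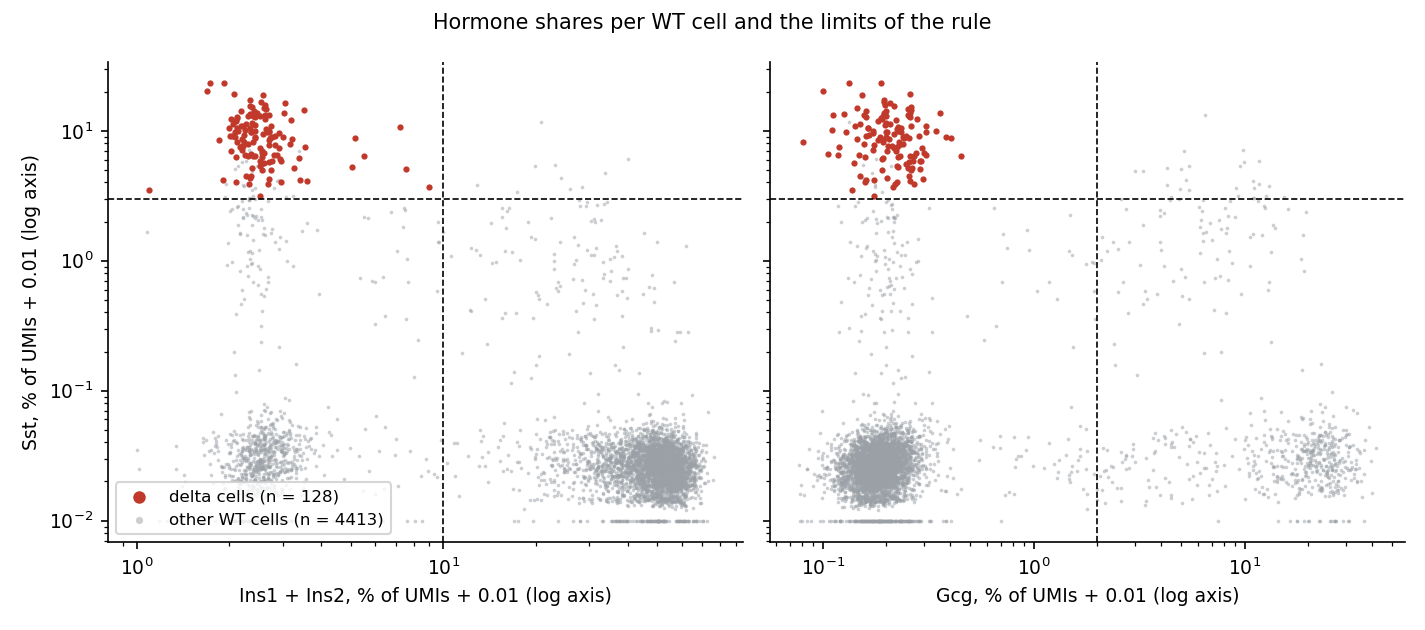
Each point is 1 WT cell, with its Sst share of UMIs (vertical, log axis) against its insulin share (left) or Gcg share (right), all with 0.01 added. Dashed lines are the limits of the rule, and the 128 delta cells lie at a median of 8.88% Sst, 2.42% insulin and 0.197% Gcg.

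Among the delta cells Sst held 3.15% to 23.2% of UMIs with a median of 8.88%, and 47 cells held 10% or more. The lowest members stood at 3.15%, 3.50% and 3.70%, and the cells just outside, with low insulin and Gcg, at 2.55%, 2.48% and 2.24%. Insulin reached 8.998%, 7.53% and 7.19% in the highest members, and 12.9% and more in Sst-rich cells outside. Gcg stayed at or below 0.443% in members and began at 2.57% outside. The gap at each limit was therefore wider for Gcg than for Sst. A further 36 cells had 3% Sst or more but failed on the other hormones, 26 on Gcg alone with a median of 9.19% Gcg, 9 on insulin alone and 1 on both. These 36 were deeper than the members, with a median of 21318.5 UMIs. Another 17 cells with low insulin and Gcg held 1% to 3% Sst, and their median Ppy share was 9.85%. Below the UMI limit, 7 of 1043 barcodes with 1000 UMIs or more met the hormone rule.

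Droplets of 1 to 200 UMIs, which hold RNA set free from the islet preparation, gave the level of free RNA. Insulin transcripts held 34.0% of UMIs in them. In delta cells insulin stood at a median of 2.42%, close to the 2.60% of the alpha set. Delta cells held 7.60 Gcg UMIs per 100 insulin UMIs, against 0.356 in the beta set and 6.43 in free RNA. They held 27.1 Ins1 UMIs per 100 Ins2 UMIs, against 36.7 in the beta set and 29.1 in free RNA. If all Ins2 in delta cells is free RNA, free RNA gives them at most 7.91% of each droplet level. That limit is printed below for some of the genes that come near it, and a missing limit does not mean a level far above free RNA.

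The 8 delta markers, of which Sst chose the cells, were counted in them at levels far above those of the other cells, as the plot of markers by set shows. Hhex, the homeodomain factor of delta cell differentiation, stood at 140.2 CPM (120.1 to 162.6), against 3.73 CPM in the other WT cells, 0.950 CPM in the beta set, 2.16 CPM in the alpha set and 8.43 CPM in droplets. Single delta cells ranged from 0 to 681 CPM of Hhex with a median of 113 CPM. Rbp4, which carries retinol in blood, stood at 3269.8 CPM, against 144 CPM in the other WT cells and 777 CPM in the alpha set. It was found in all 128 cells, from 228 to 11656 CPM with a median of 2949 CPM.

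Ly6h, a lipid-anchored surface protein that acts on nicotinic acetylcholine receptors in neurons, stood at 365 CPM (332 to 400.1), against 6.58 CPM in the other WT cells. In cells thinned to 5000 UMIs it was detected in 71.1% of delta cells and 1.01% of the beta set. Unthinned, at the median depths given above, these shares were 78.9% and 3.37%. Ppp1r17, a regulatory subunit of protein phosphatase 1, stood at 125 CPM, against 1.52 CPM in the other WT cells. Its thinned share was 28.9% of delta cells and 0.325% of the beta set, and 40.6% and 1.33% unthinned. It was therefore found in fewer delta cells than Ly6h at these depths.

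Ffar4, a receptor for long-chain fatty acids, stood at 222 CPM, against 10.3 CPM in the other WT cells, 41.9 CPM in the alpha set and 47.6 CPM in the PP set. Arg1, which splits arginine to urea and ornithine, stood at 197 CPM, against 6.24 CPM in the other WT cells and 33.9 CPM in the alpha set. Cd24a, a mucin-like surface protein, stood at 651 CPM, against 32.5 CPM in the other WT cells and 19.1 CPM in the alpha set. Among the markers other than Sst, the ratio over the alpha set ran from log2 1.58 for Rbp4 to 5.86 for Ppp1r17. That of Sst, 6.72, follows from the Sst limits that chose both sets. Ffar4 and Rbp4 lie on chromosome 19 with 2365 bases between them, and Hhex lies 656339 bases from Ffar4.

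**Figure D2:**
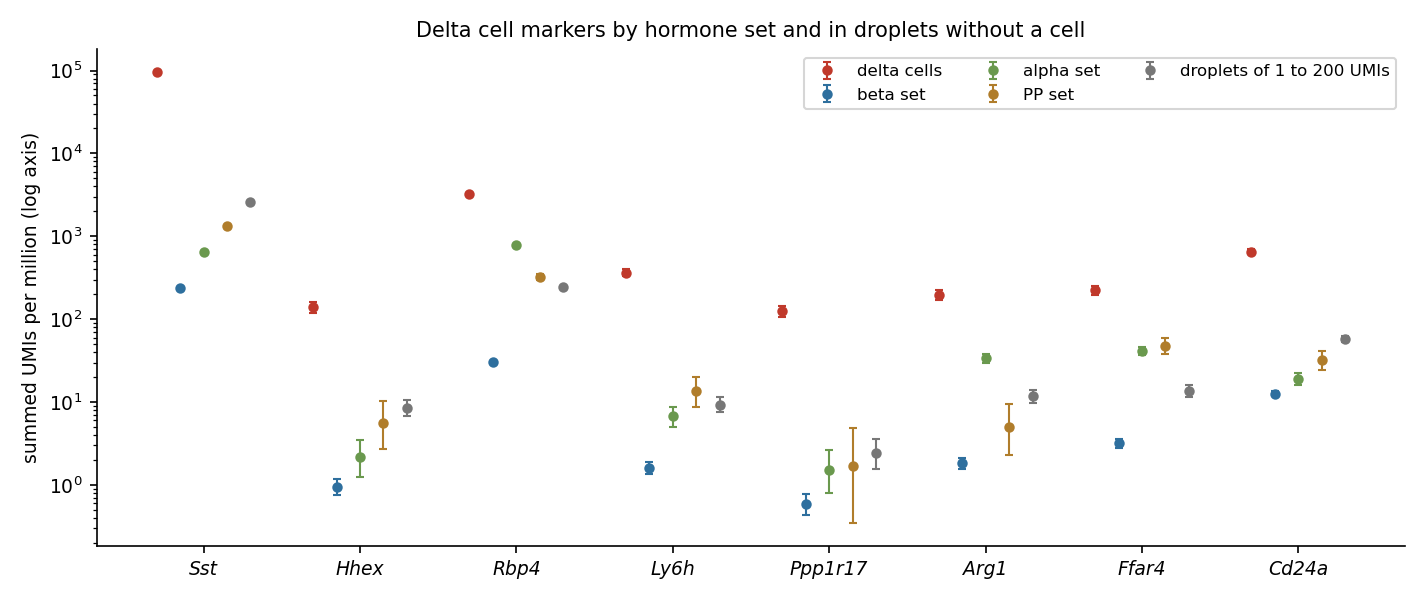
Summed CPM (log axis) of the 8 delta markers in the delta cells, the beta, alpha and PP sets and the droplets of 1 to 200 UMIs. Points are sums over cells with exact Poisson intervals, and every marker is highest in the delta cells, for example Ly6h at 365 CPM against 6.75 CPM in the alpha set. For Sst this was set by the limits that chose the cells.

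Of the marker lists of other cell types, most summed to less in the delta cells than in the other WT cells, and the acinar, duct, Schwann and goblet lists and Ppy, the PP marker described below, to more. The 9 beta markers, insulin and Iapp among them, summed to 52417 CPM, against 474819 CPM in the other WT cells, with a free RNA limit of 31609 CPM. The 8 alpha markers summed to 2865 CPM, against 23098 CPM in the other WT cells, and free RNA could give up to 2104 CPM of that. Endothelial markers summed to 24.2 CPM, against 100.9 CPM in the other WT cells, mesenchymal markers to 4.03 CPM against 28.3 CPM, and haemoglobin genes to 26.6 CPM against 499 CPM. In the same order these lists summed to 21.4, 4.08 and 20.1 CPM in the beta set and 25.7, 9.93 and 25.6 CPM in the alpha set. Their free RNA limits in delta cells were 14.2, 3.66 and 34.4 CPM. Macrophage markers stood at 96.7 CPM, against 165 CPM in the other WT cells. Most of this was C1qa, at 82.97 CPM against 54.8 CPM, while C1qb stood at 4.83 CPM against 34.5 CPM. Goblet markers stood at 6.44 CPM (8 UMIs) against 2.50 CPM. Lymphocyte markers stood at 10.5 CPM against 62.2 CPM, with 4 of 6 at 0. Schwann markers stood at 24.97 CPM (31 UMIs) against 10.1 CPM, with Sox10 at 0, and acinar markers at 130.5 CPM against 28.8 CPM, mostly Cela1. Duct markers stood at 169 CPM against 128 CPM, among them Sox9 at 18.5 CPM (23 UMIs) against 1.14 CPM, with Krt19 at 0. These values are CPM as counted, and the median gene itself stood at log2 0.77 over the other WT cells. Relative to the median gene, the duct sum and C1qa were lower in delta cells. The part of these markers of other cell types in the results was not tested.

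Against the other WT cells, 351 of 5694 genes with at least 20 CPM on either side were higher by at least 2-fold relative to the median gene (6.16%) and 387 were lower by at least 2-fold (6.8%), with a pseudocount of 1 CPM. Among the genes past 2-fold 47.6% were higher, and without centring on the median gene 93.0% were. Against the beta set 455 of 5678 genes lay above (8.01%) and 436 below (7.68%). Against the alpha set 325 of 5693 lay above (5.71%) and 262 below (4.6%). Nothing is read from the counts of members against these shares, because the cells were chosen on the same counts.

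Other genes than the markers were among the 20 highest with at least 100 CPM. S100a16, a calcium-binding protein, stood at 166 CPM, against 6.23 CPM in the other WT cells (log2 3.97). Calb1, which encodes the calcium buffer calbindin, stood at 143 CPM against 15.7 CPM (log2 2.42), and at 71.1 CPM in the alpha set. Cidea, a protein of lipid droplets, stood at 121 CPM against 5.28 CPM (log2 3.75). Fam159b stood at 493 CPM against 32.5 CPM (log2 3.16), with 11.8 CPM in the alpha set.

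Tspan8, a tetraspanin of the cell surface, stood at 238 CPM against 16.8 CPM (log2 3.05). Folr1, a folate receptor of the surface, stood at 159 CPM against 18.8 CPM (log2 2.31). In the PP set Tspan8 stood at 189 CPM and Folr1 at 100.3 CPM. Ehf, a transcription factor of epithelia, stood at 127 CPM against 8.37 CPM (log2 3.16) and Klhdc8b at 118 CPM against 9.28 CPM (log2 2.90). Stxbp5l, a tomosyn that holds back vesicle fusion, stood at 104 CPM against 9.54 CPM (log2 2.68). Hspb1, a small heat shock protein, stood at 2637 CPM against 313 CPM (log2 2.31) and ranged widely among delta cells, from 0 to 14751 CPM with a median of 1962 CPM.

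Cela1, an elastase named as an acinar marker, was also among the highest genes at 107 CPM (89.7 to 127), against 4.11 CPM in the other WT cells and 32.1 CPM in droplets. The other 8 acinar markers together held 23.4 CPM (29 UMIs) in delta cells, against 24.7 CPM in the other WT cells and 479 CPM in droplets. Free RNA could give delta cells up to 2.54 CPM of Cela1. The gene was found in 21.1% of delta cells at 5000 UMIs, against 0.592% of the beta set, and in 28.1% and 2.34% unthinned.

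The lowest 10 genes with at least 100 CPM in the other WT cells were the insulin genes, Gcg, Ucn3, G6pc2, Trpm5, Gast and haemoglobin genes. The rule itself kept the insulin genes and Gcg low. In delta cells Ucn3, which encodes the beta cell peptide urocortin 3, held 20.1 CPM (13.0 to 29.7), against 211 CPM in the other WT cells, and free RNA could give up to 14.5 CPM. G6pc2, a glucose-6-phosphatase of beta cells, stood at 22.6 CPM against 261 CPM, with a free RNA limit of 20.5 CPM. Trpm5, a cation channel, stood at 13.7 CPM against 139.8 CPM, with a limit of 11.6 CPM. Gast, which encodes gastrin, held 8.06 CPM against 108 CPM, with a limit of 14.7 CPM, and was highest in the PP set at 705 CPM. Hba-a2, Hba-a1 and Hbb-bs held 3.22, 10.5 and 9.67 CPM in delta cells, against 101, 141 and 215 CPM in the other WT cells. The intervals of Ucn3, G6pc2 and Trpm5 hold their free RNA limits, so these levels are not read as expression in delta cells.

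**Figure D3:**
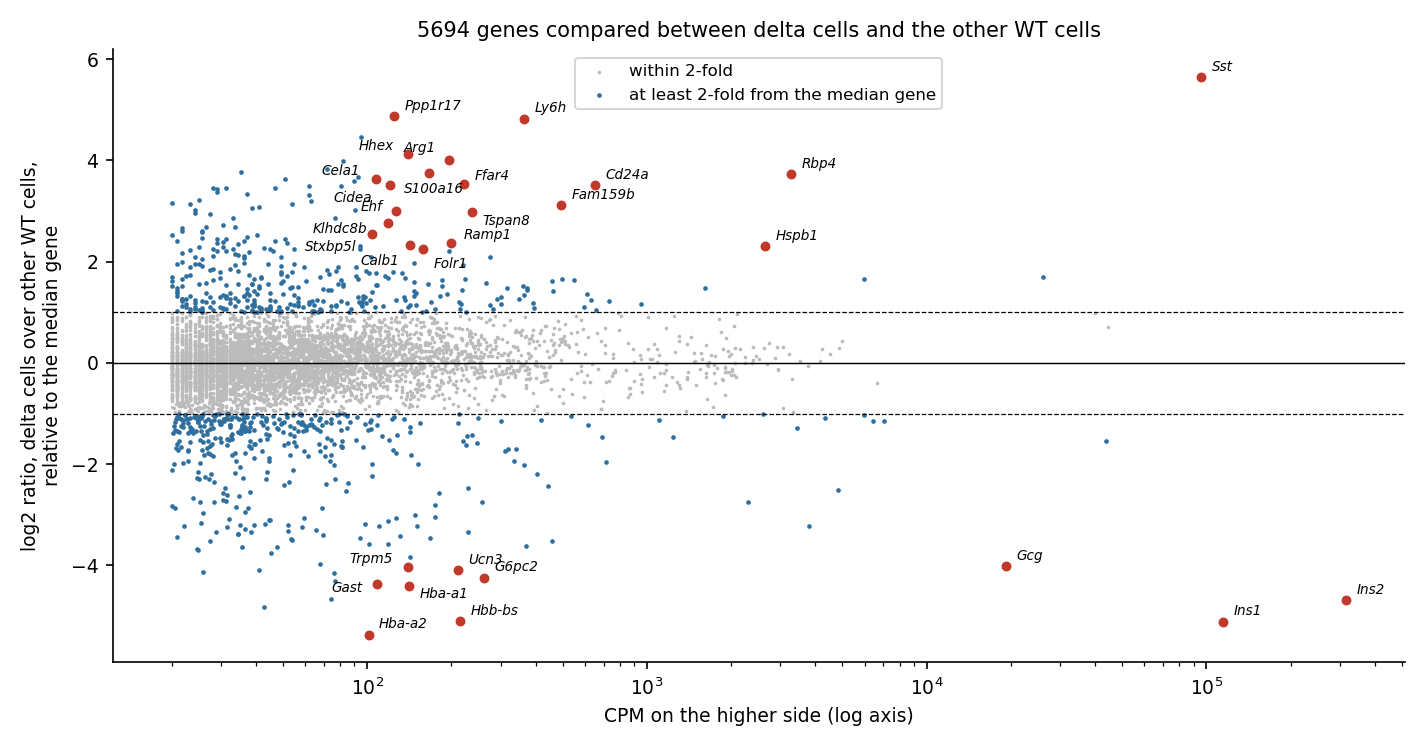
Log2 ratio of delta cells over the other WT cells relative to the median gene (vertical, pseudocount of 1 CPM) against the CPM on the higher side (log axis) for 5694 genes. Red points are the 20 highest and 10 lowest genes of at least 100 CPM, from Sst at 5.65 down to Hba-a2, and dashed lines mark 2-fold.

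Ppy, which encodes pancreatic polypeptide, was abundant in most delta cells. Its share of UMIs ran from 0.0671% to 28.3% with a median of 2.89%, against a median of 0.187% in the beta set, 0.395% in the alpha set and 36.8% in the PP set. At least 1% of UMIs were Ppy in 95 of 128 delta cells (74.2%, 65.7 to 81.5), against 35 of 3380 cells of the beta set (1.04%) and 173 of 468 of the alpha set. At least 5% were Ppy in 31 delta cells and at least 10% in 4. Free RNA could give up to 0.111%, which 127 delta cells exceeded. The 95th percentile of the beta set, 0.274%, was exceeded by 115. Of the other 13 delta cells, 11 lay between the 5th and 95th percentiles of the beta set and 2 lay below. Against the alpha set, 121 of the 128 lay between these percentiles, 0.175% and 15.6%, with 3 above and 4 below.

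The 4 delta cells richest in Ppy held 28.3%, 19.4%, 18.4% and 12.5% of it, with 3.90%, 3.50%, 9.76% and 4.47% Sst. Their depths were 13855, 15693, 11971 and 18644 UMIs, all above the 8743 UMIs of the median delta cell. Ppy equalled or exceeded Sst in 15 delta cells. In the sum over delta cells Ppy stood at 39824 CPM, against 11724 CPM in the other WT cells, 2360 CPM in the beta set, 31144 CPM in the alpha set and 313893 CPM in the PP set (log2 0.99 over the other cells, 3.20 over the beta set, -0.13 over the alpha set). Relative to the median gene Ppy thus lay just under 2-fold over the other cells.

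Pyy, which encodes peptide YY of the same family, was spread more evenly. Its share ran from 0.359% to 8.43% with a median of 2.18%, against 0.0409% in the beta set, 1.68% in the alpha set and 4.68% in the PP set. It reached 1% in 114 delta cells, and all 128 lay above the free RNA limit of 0.0385% and above the 95th percentile of the beta set, 0.0813%. All 128 also lay between the 5th and 95th percentiles of the alpha set, 0.124% and 8.52%. In 86 delta cells both Ppy and Pyy reached 1%. Across the 128 cells the shares of Ppy and Pyy were unrelated in rank (Spearman's rho 0.0449). Sst had a rho of -0.246 with Ppy and 0.237 with Pyy. All of these are shares of 1 total in 1 library, and UMI depth itself had a rho of 0.108 with Ppy and 0.329 with Pyy.

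**Figure D4:**
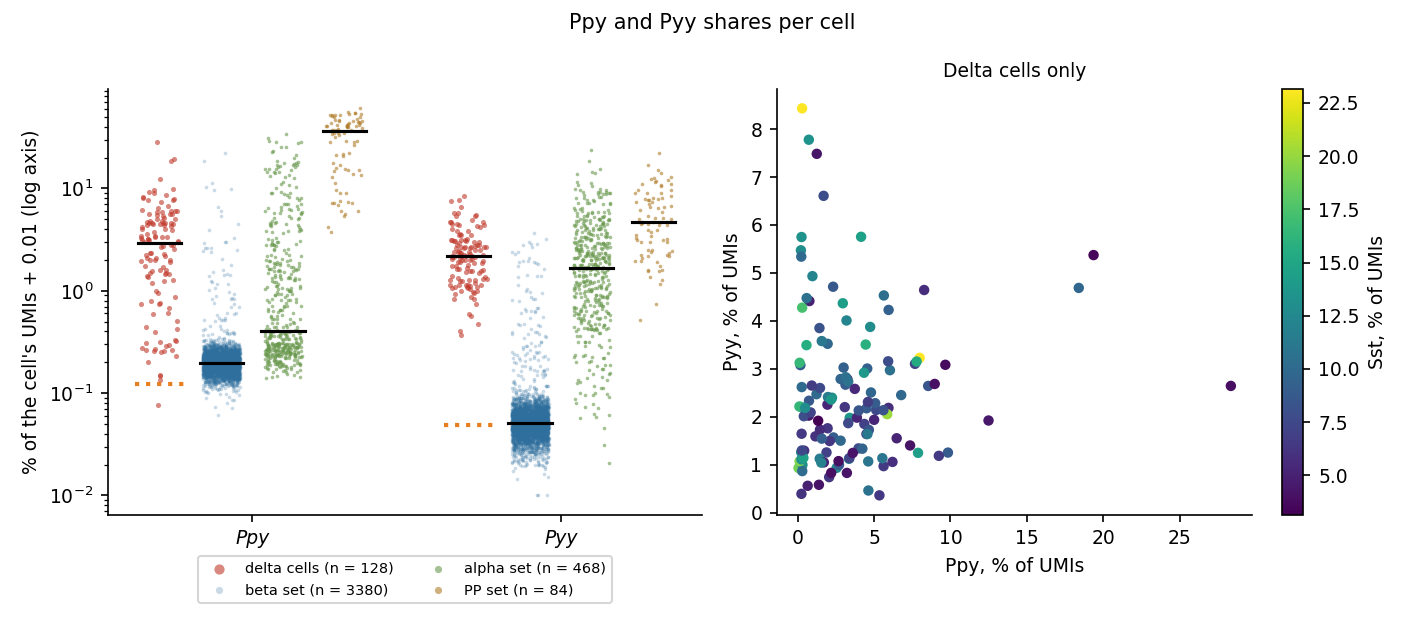
Left, Ppy and Pyy shares per cell (log axis, 0.01 added) in the delta cells and the beta, alpha and PP sets, with black lines at medians and dotted orange lines at the free RNA limit in delta cells. Right, both shares in the 128 delta cells, coloured by Sst share. Ppy spreads over a wider range than Pyy, 0.0671% to 28.3% against 0.359% to 8.43%.

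The delta cells were divided by Ppy share into 43, 43 and 42 cells to see what else differed, a division chosen after these values were seen. Median depths were 8704, 8584 and 9435 UMIs from the lowest to the highest group. Of 1381 genes with at least 100 CPM, 7 lay 2-fold or more above the median gene in the highest over the lowest group (0.507%) and 4 as far below (0.29%). Among the 7 were Ppy itself, Prkca, a protein kinase C, Pdgfa, a growth factor, Snhg11, Cela1 and Eif4g1, an initiation factor of translation. Prkca held 138 CPM (62 UMIs) in the highest group, against 47.7 CPM (19 UMIs) in the lowest. The 4 were Gap43, Dlk1, Vegfa and Mrpl38, with Gap43 at 60.3 CPM against 143 CPM and Dlk1, a surface protein of the Notch ligand type, at 53.6 CPM against 128 CPM.

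Of the markers, Rbp4 held 3328 CPM in the highest Ppy group and 3335 CPM in the lowest, and Ffar4 212 CPM and 223 CPM. Hhex held 89.3 CPM (63.8 to 122) in the highest and 173 CPM (135 to 219) in the lowest. Arg1 held 145 CPM (112 to 185) and 254 CPM (207 to 308). Pdx1 held 46.9 CPM (29.0 to 71.7) and 95.4 CPM (67.5 to 131). Whether these intervals overlap is not read as a result, because they cover counting error and not the spread between cells. Sst, Pyy, Iapp, Chgb, Hspb1 and Resp18 also held fewer CPM in the highest group than in the lowest. Ly6h and Ppp1r17 held more, at 380 CPM against 326 CPM and 143 CPM against 103 CPM. Ins2 held 22011 CPM (21578 to 22450) in the highest group and 19905 CPM (19469 to 20348) in the lowest, and Gcg 2008 CPM and 1941 CPM. Median insulin shares per cell ran the other way from the Ins2 sums, at 2.51%, 2.42% and 2.37% from the lowest to the highest group.

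A division by Sst share, which chose the cells, was also made after these values were seen. No share over all genes is given for it. The lowest, middle and highest groups of delta cells held 103, 176 and 223 CPM of Isl1, a LIM-homeodomain factor of islet cells. Rbp4 rose too, at 2776, 3394 and 3619 CPM, and so did Ly6h, Pyy and Iapp. Hspb1 went the other way, at 3581, 2589.7 and 1792 CPM, and Chga at 3283, 2996 and 2458 CPM. Summed Ppy also fell, at 54619.8, 38892 and 26732 CPM. Median Ppy shares per cell were 3.23%, 3.13% and 2.09%, so by this measure the lowest and middle groups were nearly level. The Ppy-rich cells with 3.90%, 3.50% and 4.47% Sst fell in the lowest group. Hhex held 135, 146 and 139 CPM. Ins2 held 23483, 19742 and 19416 CPM. Median depths were 7939, 8634 and 9397.5 UMIs in the same order, and the part of depth in these values was not tested.

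Among the other islet peptides, Iapp, which encodes amylin, stood at 25702 CPM, against 43704 CPM in the other WT cells, 49114 CPM in the beta set and 8547 CPM in the alpha set. Free RNA could give up to 4626 CPM. Delta cells held 96.9 Iapp UMIs per 100 insulin UMIs, against 9.74 in the beta set and 17.2 in free RNA. Its share reached 0.697% to 6.07% of UMIs in single delta cells with a median of 2.59%, and 122 of 128 lay above the 95th percentile of the alpha set. Against the beta set, 104 lay below the 5th percentile, 3.29%, and 24 between the 5th and the 95th. Of 12 peptide genes compared, 2 lay 2-fold or more above the median gene, Sst and Pyy, and 7 below, with a list median of -2.46. Sst above and the insulin genes below chose the cells, so these counts and the median are partly set by the rule. Over all genes compared with the other WT cells, 6.16% lay as far above and 6.8% as far below. The same shares apply to each list below. Spp1, which encodes osteopontin, stood at 33.0 CPM against 20.2 CPM. Ghrl, which encodes ghrelin, was not counted, which allows up to 3 UMIs, and Npy gave 3 UMIs.

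Among islet transcription factors, 3 of 19 compared genes lay above 2-fold and 3 below, beside 6.16% and 6.8% of all genes (median -0.16). Fev, a factor of serotonergic neurons, stood at 36.3 CPM (45 UMIs), against 4.07 CPM in the other WT cells, 0.880 CPM in the beta set and 25.2 CPM in the alpha set. Etv1, an ETS factor, stood at 98.3 CPM against 22.7 CPM, with 129.9 CPM in the alpha set. Pdx1, which delta and beta cells share, stood at 78.1 CPM, against 46.0 CPM in the beta set (log2 -0.12) and 10.3 CPM in the alpha set (log2 2.43). Isl1 stood at 168 CPM against 52.3 CPM (log2 0.92).

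Nkx6-1, a factor of beta cells, stood at 19.3 CPM, against 123 CPM in the beta set. Mlxipl, a glucose-responsive factor, stood at 67.7 CPM against 101 CPM in the other WT cells (log2 -1.34). Mafa was not counted in delta cells and stood at 0.106 CPM in the beta set.

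Of 35 receptor genes, 9 had 20 CPM on either side. Above 2-fold lay 2 and below 4, beside 6.16% and 6.8% of all genes compared (median -0.49). Ramp1, which pairs with a receptor to bind calcitonin gene-related peptide, stood at 199 CPM, against 21.7 CPM in the other WT cells (log2 2.43). Its partner Calcrl gave 0 UMIs. Ffar1, the fatty acid receptor of beta cells, gave 2 UMIs in delta cells and stood at 48.4 CPM in the beta set, while Ffar4 ran the other way, at 222 CPM in delta cells and 3.19 CPM in the beta set. Gipr, the receptor of the incretin GIP, stood at 12.9 CPM against 27.4 CPM, and Adra2a, an adrenaline receptor, at 29.8 CPM against 55.8 CPM. Below the floor, the ghrelin receptor gene Ghsr gave 9 UMIs, 7.25 CPM (3.32 to 13.8), against 0.184 CPM in the other WT cells. Crhr2, a receptor of urocortins, gave 8 UMIs, 6.44 CPM (2.78 to 12.7), against 0.261 CPM. Glp1r gave 0 UMIs.

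Among ion channels, 4 of 15 lay above 2-fold and 5 below, beside 6.16% and 6.8% of all genes compared (median -0.13). Cacna1h, a T-type calcium channel, stood at 38.7 CPM (48 UMIs), against 1.80 CPM in the other WT cells and 2.04 CPM in the alpha set (log2 3.66 and 3.76). The sodium channels Scn9a and Scn3a stood at 77.3 CPM against 12.1 CPM and 29.8 CPM against 6.33 CPM. Kcnk3, a leak potassium channel, stood at 149 CPM against 39.1 CPM, and higher still in the alpha set at 193 CPM. Gjd2, the gap junction protein that couples beta cells, stood at 47.5 CPM against 81.6 CPM. Abcc8, a subunit of the ATP-sensitive potassium channel, stood at 201 CPM against 129 CPM (log2 -0.13), and its pore gene Kcnj11 gave 0 UMIs in delta cells and 0.634 CPM in the beta set.

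Genes of granules and exocytosis were mixed, with 4 of 22 above 2-fold and 7 below, beside 6.16% and 6.8% of all genes (median -0.68). Syt1, a calcium sensor of vesicle fusion, stood at 50.8 CPM (63 UMIs), against 1.45 CPM in the other WT cells, 0.540 CPM in the beta set and 2.55 CPM in the alpha set. Syt5 stood at 60.4 CPM against 10.7 CPM. The granule proteins Chgb, which encodes chromogranin B, and Resp18 stood at 1618 CPM against 341 CPM and 5972 CPM against 1104 CPM. Chga, which encodes chromogranin A, stood at 2903 CPM against 3339 CPM (log2 -0.97). Slc30a8, the zinc transporter of insulin granules, stood at 37.9 CPM against 230.1 CPM, with a free RNA limit of 22.3 CPM. Sytl4, a granule docking protein, stood at 7.25 CPM against 54.1 CPM, with a limit of 4.45 CPM. Cadps, a priming factor of granules, gave 4 UMIs.

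Of 8 prohormone processing genes 1 lay below 2-fold and none above (median -0.40). Pcsk1, the convertase needed for insulin, stood at 9.67 CPM against 27.7 CPM, and Pcsk2, the second convertase, at 1895 CPM against 1736 CPM (log2 -0.64). The carboxypeptidase gene Cpe stood at 1154 CPM against 995 CPM (log2 -0.56), and Pcsk1n, an inhibitor of the first convertase, at 4870.4 CPM against 2342 CPM (log2 0.29).

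Among neurite and adhesion genes, 5 of 13 lay above 2-fold and 1 below, beside 6.16% and 6.8% of all genes (median 0.21). The 5 include the markers Ly6h and Cd24a. Gap43, a protein of growing axons, stood at 95.1 CPM (78.7 to 114), against 1.55 CPM in the other WT cells, 0.270 CPM in the beta set and 1.40 CPM in the alpha set. It was found in 32.8% of delta cells at 5000 UMIs, against 0.0888% of the beta set, and in 46.1% and 0.592% unthinned. Dscam, a neuronal adhesion protein, stood at 26.6 CPM against 1.52 CPM, and Efna5, a guidance ligand, at 44.3 CPM against 5.82 CPM. Tubb3, a neuronal tubulin, ran the other way at 10.5 CPM against 20.7 CPM.

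In retinol handling, Ttr, which pairs with Rbp4 in blood, stood at 689 CPM against 3788 CPM in the other WT cells and 31188 CPM in the alpha set. The list held 3 compared genes, 2 above 2-fold and 1 below (median 1.95), and without a floor its 10 genes had a median of -0.44. Of 7 genes of arginine and polyamine metabolism, Arg1 was the one past 2-fold, and Odc1, which takes up the ornithine that Arg1 makes, stood at 166 CPM against 136 CPM (log2 -0.48).

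Of 15 glucose handling genes, 13 lay within 2-fold of the median gene (median 0.10). The exceptions were Slc2a2, the glucose transporter of beta cells, at 4.03 CPM (5 UMIs) against 74.3 CPM, and G6pc2. Aldoa, a glycolytic enzyme, stood at 487 CPM against 223 CPM (log2 0.36). Of 16 genes of cAMP signalling 14 lay within 2-fold (median -0.00). Pde4d, which breaks down cAMP, stood at 37.1 CPM against 7.08 CPM, and Ppp1r1a, an inhibitor of protein phosphatase 1, at 149 CPM against 404 CPM. Insulin signalling had 1 of 13 above, the adaptor Grb14 at 39.5 CPM against 9.86 CPM, and 2 below, Irs2 and Pik3r1 (median -0.65).

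The unfolded protein response and immediate early lists had medians below the median gene against the other WT cells and nearer to it against the alpha set, as the plot of list medians shows. Of 22 genes of the unfolded protein response 11 lay 2-fold or more below and none above (median -1.07), against 2 below and none above over the alpha set (median -0.23). Of all genes compared, 6.8% lay below and 6.16% above, and 4.6% and 5.71% over the alpha set. Ero1lb, an oxidase of protein folding, stood at 50.8 CPM against 370.1 CPM in the other WT cells and 78.9 CPM in the alpha set. Sel1l, which helps to clear misfolded proteins, stood at 35.4 CPM against 175 CPM and 72.5 CPM. Hspa5, the chaperone BiP, stood at 1646 CPM against 1575 CPM (log2 -0.71), and Xbp1, a factor of the folding response, at 522 CPM against 241 CPM (log2 0.35). The immediate early list had 10 of 17 below and none above (median -1.22), and 2 of 16 below over the alpha set (median -0.02). Fos stood at 152 CPM against 363 CPM in the other WT cells and 108 CPM in the alpha set. The difference between the contrasts was not tested.

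Of 12 mitochondrially encoded genes 10 lay 2-fold or more below (median -1.15), and 1 of 12 over the alpha set (median -0.50). Droplets held 7.46% of UMIs from these genes, against 2.55% in delta cells, 3.24% in the other WT cells and 2.40% in the alpha set. Ribosomal protein genes lay level with the median gene against the other WT cells, with none of 24 past 2-fold (median -0.05), while 10 of 24 lay below over the alpha set (median -0.97). Rplp1 stood at 1211 CPM in delta cells, against 1377 CPM in the other WT cells and 2961 CPM in the alpha set, and Rpl3 at 1844 CPM, against 705 CPM and 1549 CPM. Without centring, the list medians over the other cells of prohormone processing, insulin signalling and ribosomal protein genes lay above 0, at 0.37, 0.12 and 0.72.

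**Figure D5:**
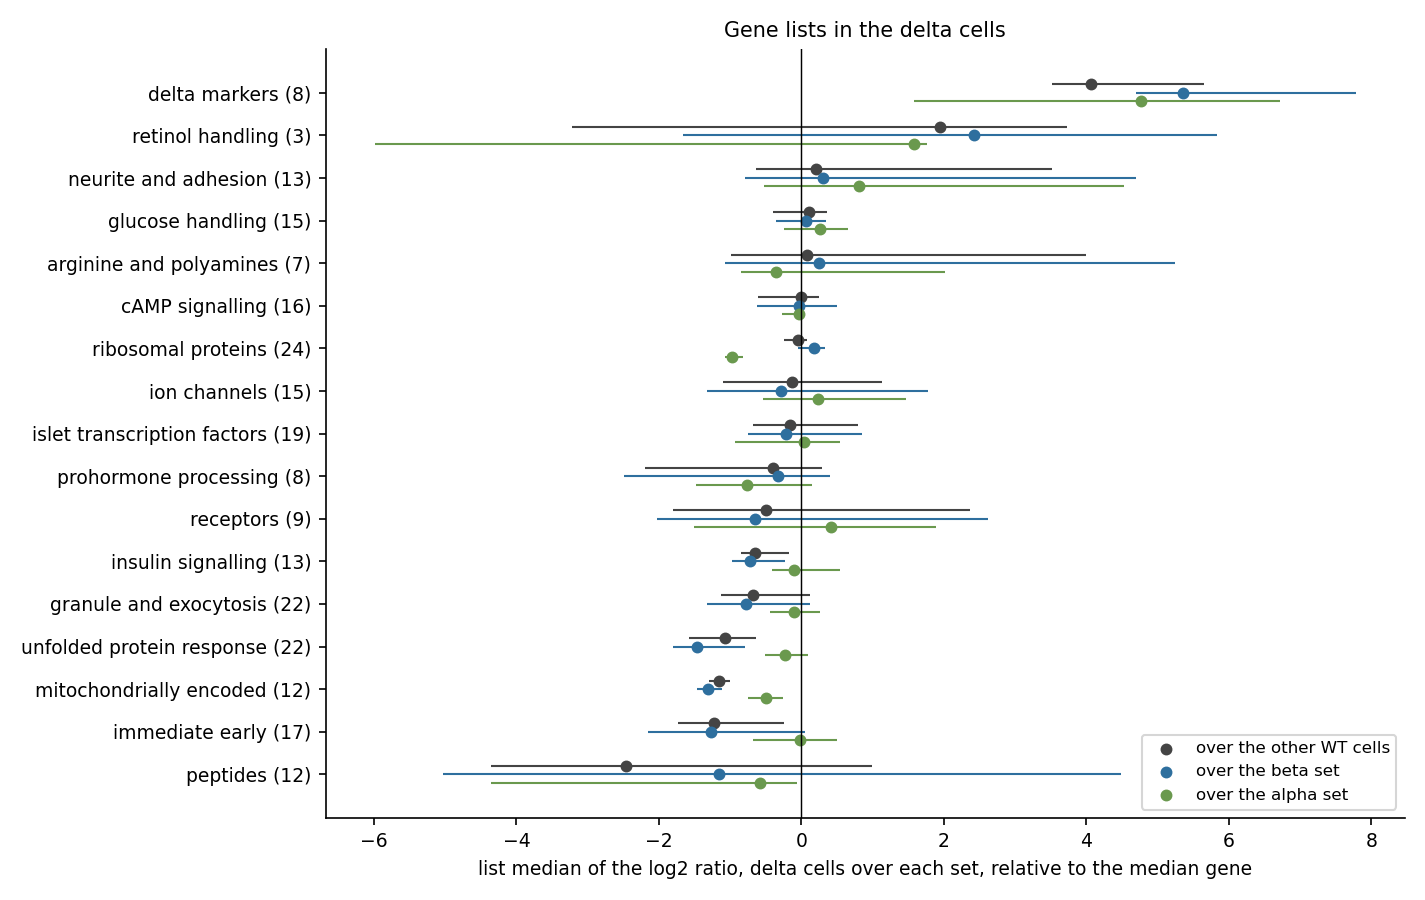
List medians of the log2 ratio of delta cells over the other WT cells, the beta set and the alpha set, relative to the median gene, with the number of genes compared against the other cells in brackets. Lines run between order statistics around the median over genes, and to the whole range in short lists. The unfolded protein response list stands at -1.07 over the other cells and -0.23 over the alpha set.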

How the data were processed

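The authors deposited raw UMI counts for each gene in each droplet barcode, whole numbers with no scaling, per the file headers. Read checking with FastQC, trimming with Trimmomatic and build mm10 appear, without versions, in the submitters' processing notes. The aligner, counter and annotation were not given in those sources. The WT matrix covered 27998 genes and 737280 barcodes. Of 4550 barcodes at or over the UMI minimum, 3 had under 500 genes and 6 over 15% mitochondrially encoded UMIs. TG cells were not analysed here. No doublet caller was run, and 1 alternative leaves out delta cells above the 90th percentile of their UMIs.

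CPM values are sums over cells, and their 95% intervals are exact Poisson ones. Plain ratios have exact conditional binomial intervals. Calls and list medians add 1 CPM and use genes of at least 20 CPM on either side, relative to the median gene. A gene with 0 UMIs allows up to 3. Thinning drew 5000 UMIs a cell (seed 7), and no cell was shallower. Named genes are the markers, the peptides of at least 20 CPM, the 20 highest and 10 lowest genes of at least 100 CPM, and up to 4 genes at each end of a list. Others, such as Ghsr, Crhr2, Calcrl, Glp1r, Kcnj11, Mafa, Pdx1, Abcc8, Chga, Hspa5, Efna5, Sox9, Krt19, Npy and Ghrl, were named after their values were seen, and so were the divisions by Ppy and Sst. The members and the 17 lists were chosen with earlier results of these data known. Some genes of the lists are not reported here. The step was tested on simulated data. Python 3.11.15 with numpy 2.4.6, scipy 1.17.1 and pandas 2.3.3 was used. Gene positions are GENCODE M21 on GRCm38, matched by gene ID for all 418 genes looked up, and promoters were at hand for 4 of the 8 markers.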

Additional observations from a re-analysis of the deposited data

How the results depend on the processing

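The values rest on 1 WT library and 128 shallow cells, and a gene such as Ucn3, at 20.1 CPM, rests on 25 UMIs in them. Overlapping genes and paralogs such as Ins1 and Ins2 or the haemoglobin genes may share reads. No paired analysis was possible because each group has 1 library. Delta cells in doublets with other cells were not told apart from cells with several hormones.

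A minimum of 10000 UMIs left 38 delta cells. Leaving hormone and mitochondrially encoded UMIs out of the total gave 606 lower genes against the other cells and 680 against the beta set, from 7238 and 7309 genes compared. Without centring, 1823 genes lay above and 137 below against the other cells, 2358 and 119 against the beta set, and 856 and 119 against the alpha set. A floor of 50 CPM gave 156 and 186, 207 and 203, and 129 and 143 in the same contrasts. Without a floor these were 1794 and 1239, 1860 and 1150.0, and 1120.0 and 1164, from 19068, 18140.0 and 16054 genes. A pseudocount of 10 CPM gave 198 and 254 against the other cells, 267 higher against the beta set and 181 higher against the alpha set.

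List medians over the other cells without centring were 0.37 for prohormone processing, 0.87 for glucose handling, 0.76 for cAMP signalling, 0.12 for insulin signalling, -0.30 for the unfolded protein response, -0.38 for mitochondrially encoded genes and 0.72 for ribosomal proteins. Without a floor they were 0.40 for cAMP signalling, -0.11 for insulin signalling, -0.67 for mitochondrially encoded genes, 0.42 for ribosomal proteins and -0.44 for retinol handling, which turned round from 1.95 because 10 genes in place of 3 entered. With a pseudocount of 10 CPM they were 3.21 for delta markers, -0.99 for mitochondrially encoded genes and 0.10 for ribosomal proteins.

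Ppy stood at 36397 CPM with each delta cell given equal weight, 33422 CPM from 5% Sst, 34954 CPM without cells above the 90th percentile of UMIs, 55519 CPM from 10000 UMIs and 52513 CPM without hormone and mitochondrially encoded UMIs in the total. Pyy stood at 24768 CPM with equal weight, 23738 CPM without those deepest cells, 29982 CPM from 10000 UMIs and 34427 CPM without hormone and mitochondrially encoded UMIs. For 57 named genes, 323 of 449 log2 ratios under the alternatives, among them the added one without Sst-bearing cells in the reference, stayed within their counting interval, 126 lay outside it, and 0 of those at least 2-fold from the median gene changed sign. The cause of these shifts was not tested.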
